A study of Mus musculus with 4 samples.

Results

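The translation initiation and elongation factors, whose genes carry the Eif and Eef symbols, were examined in mouse germline stem cells in which Nanos2 was switched on. Members were all non-control probes on the array with a gene name that begins with Eif or Eef and a number, without the Argonaute genes once named Eif2c and without the Eif4ebp genes. The rule found 58 genes, read by 128 probes of 60 bases each, and 57 of these genes were measured among 17537 features tested in all. Germline stem cells are spermatogonial stem cells from male testis that are kept in culture, and Nanos2 is an RNA-binding protein of undifferentiated spermatogonia. In the group called 4-hydroxytamoxifen below, 2 samples of such cells took 4-hydroxytamoxifen for 48 hours, a compound that the sample titles shorten to 4-Tamoxifen. In the group called DMSO, 2 samples took the solvent for 48 hours. Cells of both groups carried the Cre-ERT2 recombinase as a Rosa knock-in, which 4-hydroxytamoxifen makes active, and the conditional Nanos2 overexpression construct. No samples took the compound without the construct, so effects of the compound, the recombinase and Nanos2 cannot be told apart. Both groups grew with GDNF, EGF and FGF2 on mitomycin-C treated feeder fibroblasts from C57Bl6 embryos of day 13.5, and feeders were removed before RNA was extracted. The labels give neither the age of the animals from which the stem cells came nor whether the replicates came from separate cultures. Every p-value therefore rests on the spread between these 4 samples alone, and that spread may be technical.

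A round of translation starts when eIF2, loaded with GTP and the initiator tRNA, joins the small ribosomal subunit together with eIF1, eIF1A, eIF3 and eIF5. The eIF4 proteins bring the subunit to the capped end of the mRNA: eIF4E holds the cap, eIF4G is the scaffold and eIF4A is a helicase that eIF4B and eIF4H assist. eIF2B recharges eIF2 with GTP, and the kinases HRI, PKR, PERK and GCN2 slow initiation by phosphorylating eIF2. During elongation eEF1A delivers aminoacyl-tRNAs, the eEF1B subunits recharge eEF1A, eEF2 moves the ribosome along, and eIF5A helps at stalled sites. Male germ cells rely on control of translation because many of their mRNAs are stored before use.

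Coordinates of probes are those of the deposited files, on mm9. The probes below read 4 members on which the results turn, and each lies across an exon boundary, so its coordinates include an intron. They are printed in the sense direction, in lower case throughout. The Eif4g3 probe at chr4:137759386-137761926 and the Eif4b probe at chr15:101925462-101925724 were on the plus strand and had a higher signal with 4-hydroxytamoxifen. The Eef2k probe at chr7:128043027-128046821, plus strand, and the Eif2s3x probe at chrX:91436226-91441634, minus strand, had a lower one.
Eif4g3: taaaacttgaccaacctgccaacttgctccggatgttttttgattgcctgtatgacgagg
Eif4b: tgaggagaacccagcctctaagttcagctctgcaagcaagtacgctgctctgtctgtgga
Eef2k: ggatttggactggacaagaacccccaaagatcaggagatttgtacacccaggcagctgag
Eif2s3x: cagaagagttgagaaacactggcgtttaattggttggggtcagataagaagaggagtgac

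Promoters were read from RefSeq sequences of build GRCm38.p6, which run from 250 bases before to 50 bases after each annotated start, and 48 of the 58 member genes matched an entry. The motif CACGTG, the E-box known as a binding sequence of MYC with MAX and of the USF factors, reads the same on both strands and was searched once. It was present in at least 1 window of 12 of the 48 member genes (25%), against 2187 of 27025 genes in the whole table (8.09%). Counted by start, 14 of 63 member windows held it (22.2%), against 2349 of 32851 windows in all (7.15%). The motif contains a CpG, and the windows differed in CpG number too: the median window held 23 CpG for the members and 7 over all starts. Among measured members, the motif was in 6 of the 21 called lower with 4-hydroxytamoxifen, 0 of the 9 called higher and 6 of the 17 not called, so it was at least as common in members that were not called as in those called lower. The 6 called lower were Eef2k, Eif4a1, Eif4e, Eif4g1, Eif5a and Eif5a2, and their stretches of 30 bases around the motif nearest the start are shown, gene strand, with the motif in capitals. The stretches lay at chr7:120842788-120842817 (plus strand), chr11:69672595-69672624 (minus), chr3:138527192-138527221 (plus), chr16:20672661-20672690 (plus), chr11:69921443-69921472 (minus) and chr3:28781148-28781177 (plus), in the order of the lines.
Eef2k: cccggggacggcCACGTGagcccgggcgtg
Eif4a1: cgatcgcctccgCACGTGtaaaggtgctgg
Eif4e: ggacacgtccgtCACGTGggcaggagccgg
Eif4g1: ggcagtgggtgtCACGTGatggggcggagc
Eif5a: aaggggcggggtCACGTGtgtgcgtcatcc
Eif5a2: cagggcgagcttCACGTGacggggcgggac

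The 6 not called that held the motif were Eef2, Eif1b, Eif3a, Eif3f, Eif3k and Eif4h. In Eif3a it lay only in the part after the start. The other 5 are shown for comparison, at chr10:81176576-81176605 (plus), chr9:120492570-120492599 (plus), chr7:108934335-108934364 (plus), chr7:28981915-28981944 (minus) and chr5:134639488-134639517 (minus). Eef2k, Eif4e and Eif5a have several annotated starts, and the motif was near 1 of 3, 1 of 2 and 3 of 6 of them. Over the 11 stretches shown, the motif began between 24 and 189 bases before the start.
Eef2: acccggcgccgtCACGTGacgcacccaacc
Eif1b: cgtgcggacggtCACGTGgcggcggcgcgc
Eif3f: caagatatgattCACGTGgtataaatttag
Eif3k: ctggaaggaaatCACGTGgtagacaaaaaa
Eif4h: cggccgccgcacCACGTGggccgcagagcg

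Each of the 4 arrays held 43379 non-control spots, of which 62.1% to 65.9% were well above background, and 0 were saturated. All 4 arrays lay on the same slide and were read in the same scan. The processed signal, the background-subtracted brightness in scanner units, is given for each array before scaling, and its 75th percentile was 705 and 706 on the 4-hydroxytamoxifen arrays and 737 and 744 on the DMSO arrays. Differences are log2 values scaled to that percentile, 4-hydroxytamoxifen minus DMSO, with the standard error from limma and p-values adjusted over all features. Nanos2, the gene to be induced, had signals of 904 and 1070 with 4-hydroxytamoxifen, against 353 and 352 with DMSO, a difference of 1.55 ± 0.10 (SE, n = 2 each, adjusted p = 0.000868). The arrays correlated at r = 0.996 within 4-hydroxytamoxifen and 0.995 within DMSO, over 26392 probes, and at 0.945 to 0.952 between the groups. An adjusted p under 0.05 is named a call: it was reached by 69.5% of all features, with 40.3% higher and 29.3% lower, and the groups did not overlap in 86.5%.

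Of the 57 measured members, 12 were called higher with 4-hydroxytamoxifen (21.1%, against a background of 40.3% of all features), 23 were called lower (40.4%, against 29.3%) and 22 were not called. The median member differed by -0.04, against 0.11 for the median of all features, so it lay 0.15 below it. At least 2-fold differences were called higher in 1 member, Eif4g3, against 16.2% of all features, and lower in 5 by fitted values, against 8.2%. Eef2k, Eif5a2, Eif2s3y and Eif3d were 4 of these, and the bound of the other, Eif2b3, does not reach 2-fold. Eif2b3 was well above background only on the DMSO arrays and was kept through them alone. Under a filter on all 4 arrays, which drops it, 22 of 56 members were called lower (39.3%, against 31.8% of all features). Under that filter 13 were called higher (23.2%, against 41%). The groups did not overlap in 47 members (82.5%, against 86.5% of all features). Scaling to each array's median in place of the 75th percentile shifted the median of all features to -0.07, and spike-in scaling shifted it to -0.05. Of the member calls, 34.3% were higher in the main scaling, 15.2% with median scaling and 16.7% with spike-in scaling, while over all features that share was 57.9%, 46.2% and 49.7%. Under median scaling 5 members were called higher (8.8%, against 32.6% of all features), namely Eif4g3, Eif4b, Eif2ak2, Eif2s3x and Eif3h. With 1 array left out a group holds a single array, so medians are given in place of counts. The median member minus the median of all features was then -0.22 to -0.12. Of the 35 called members, 21 kept their call under every alternative, run at the level of genes, that measured them. Of these, 18 were lower and 3 higher (Eif4g3, Eif4b and Eif2ak2). Eif2b3, among the lower ones, was not measured under the filter on all 4 arrays. In bulk samples, fewer cells of a type and less RNA per cell cannot be told apart.

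**Figure D1:**
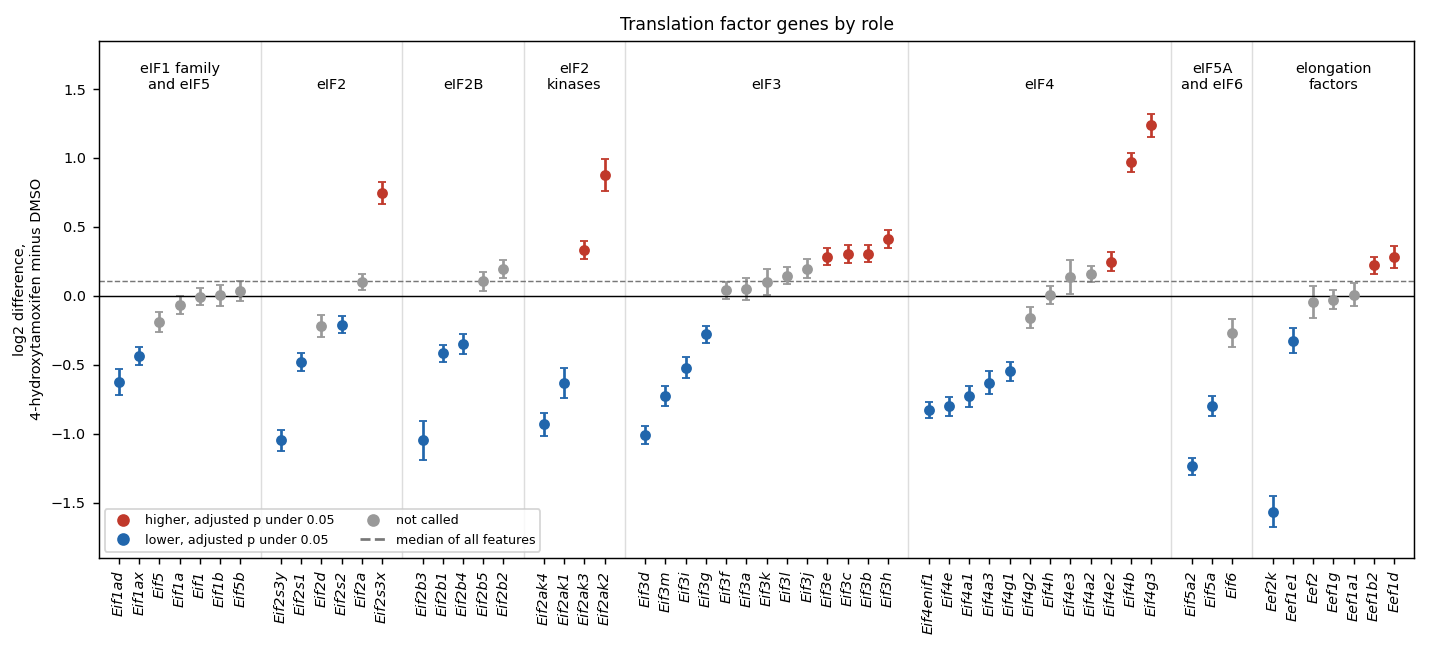
Log2 difference (4-hydroxytamoxifen minus DMSO) of each of the 57 measured members, grouped by role, with points for limma estimates from 2 arrays per group and bars for standard errors. The dashed line marks the median of all features, 0.11, and Eef2k at -1.56 and Eif4g3 at 1.24 lie at the ends. Eif2b3 was not well above background in the 4-hydroxytamoxifen group, so its point is a fitted value and not a bound.

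The cap-binding group held members that moved in opposite directions. Of the 12 eIF4 genes, 3 were called higher (25%, against 40.3% of all features) and 5 lower (41.7%, against 29.3%), with a median of -0.08. Eif4e, the cap-binding protein, had signals of 4721 and 4663 with 4-hydroxytamoxifen, against 8828 and 8323 with DMSO. Both treated arrays lay below both DMSO arrays, and the difference was -0.80 ± 0.07 (adjusted p = 0.00135). Eif4a1, the main helicase of the cap complex, had 13995 and 14848 with 4-hydroxytamoxifen, against 24117 and 26075 with DMSO, a difference of -0.73 ± 0.07 (adjusted p = 0.00193). Eif4g1, the main scaffold, had 3747 and 4032 with 4-hydroxytamoxifen, against 5940 and 5972 with DMSO, a difference of -0.55 ± 0.07 (adjusted p = 0.00344). By their brightest probes, the genes for the cap-binding protein, the helicase and the main scaffold were thus all lower. Their groups did not overlap, as in 86.5% of all features. Values of further probes of a gene come from a fit with every probe as its own feature. All 3 probes of Eif4a1 were called lower, at -1.15 to -0.51. The second probe of Eif4e, at chr3:138219720-138219779, gave 2128 and 1873 with 4-hydroxytamoxifen, against 2080 and 2116 with DMSO, where the groups overlapped, and was not called. The second Eif4g1 probe, at -0.21, was not called either.

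Eif4g3, a scaffold paralogue of Eif4g1, went the other way and was the only member called at least 2-fold higher. Its signals were 16815 and 15512 with 4-hydroxytamoxifen, against 6851 and 7548 with DMSO, a difference of 1.24 ± 0.08 or 2.36-fold (adjusted p = 0.000901). The second Eif4g3 probe, whose sequence is printed above, had 7871 and 7534 with 4-hydroxytamoxifen, against 3713 and 4020 with DMSO, and differed by 1.07. Both probes therefore placed the treated arrays above the DMSO arrays. Human EIF4G3 is the scaffold eIF4GII, and in mice the gene is known to be needed for male meiosis. Eif4b, the helicase cofactor, had 17258 and 17935 with 4-hydroxytamoxifen, against 9683 and 9194 with DMSO, a difference of 0.97 ± 0.07 (adjusted p = 0.000973). Of the other Eif4b probes, one was called higher at 0.51 and one, at 0.03, was not called. Eif4e2, a cap-binding paralogue linked to repression of translation, had 4104 and 4337 with 4-hydroxytamoxifen, against 3785 and 3675 with DMSO, a difference of 0.25 ± 0.07 (adjusted p = 0.0325). The call for Eif4e2 was lost under 9 of the 13 alternatives, median scaling and the omission of any 1 array among them.

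The remaining paralogues of the group differed less or moved down. Eif4a3, the helicase of the exon junction complex, had 4119 and 4584 with 4-hydroxytamoxifen, against 7115 and 6994 with DMSO, a difference of -0.63 ± 0.08 (adjusted p = 0.00352). Eif4a2, close in sequence to Eif4a1, had 13763 and 13938 with 4-hydroxytamoxifen, against 13009 and 13008 with DMSO, and its difference of 0.16 ± 0.06 was not called. Whether the differences of Eif4a1 and Eif4a2 were unequal was not tested. Eif4e3, another cap-binding paralogue, had 189 and 182 with 4-hydroxytamoxifen, against 159 and 198 with DMSO, so the groups overlapped and it was not called. Eif4enif1, which encodes the transporter that carries eIF4E into the nucleus, had 794 and 776 with 4-hydroxytamoxifen, against 1461 and 1464 with DMSO, a difference of -0.83 ± 0.06 (adjusted p = 0.00101). Eif4h, the other cofactor, was not called at 0.01 ± 0.07.

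**Figure D2:**
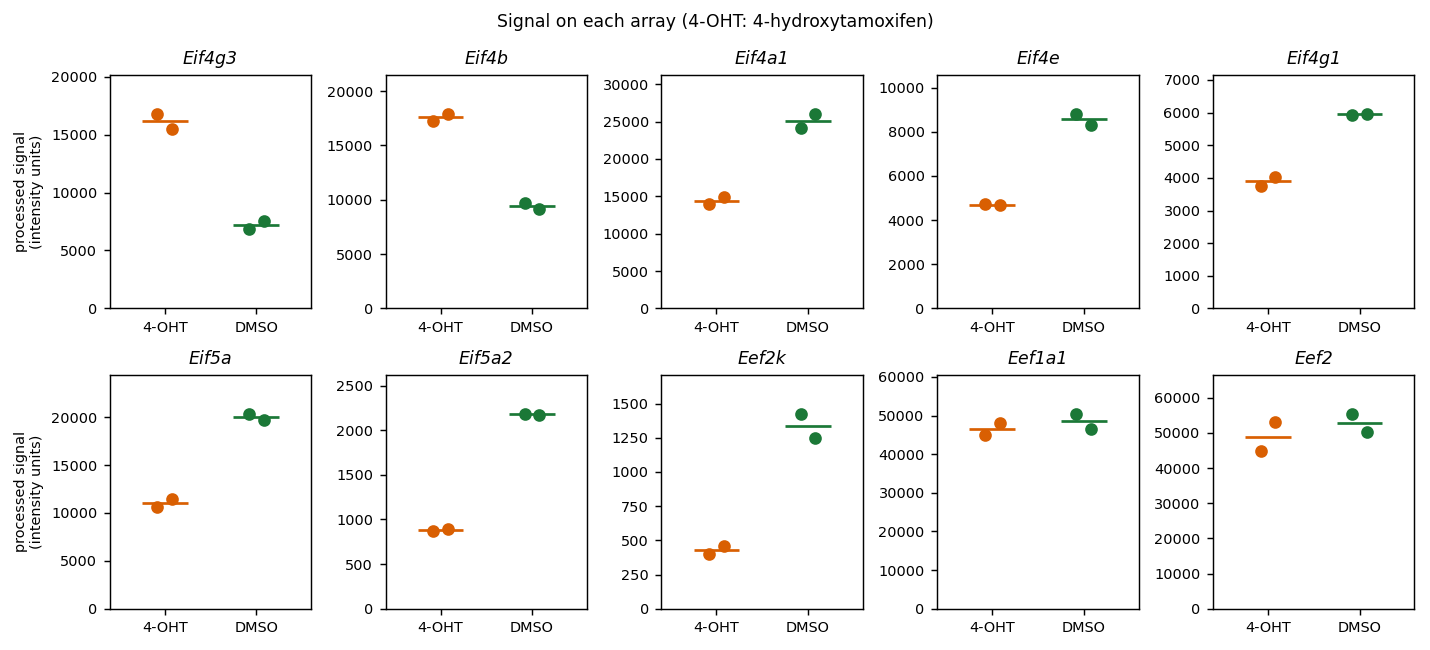
Processed signal in scanner units on each of the 4 arrays for 10 members, with 4-hydroxytamoxifen (4-OHT) to the left of DMSO and a line at each group's mean; every vertical axis starts at 0. Eif4g3 and Eif4b were higher with 4-hydroxytamoxifen, Eif4a1, Eif4e, Eif4g1, Eif5a, Eif5a2 and Eef2k were lower, and the groups of Eef1a1 and Eef2 overlapped. Signals of different probes are not comparable with each other.

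Both eIF5A genes were lower. eIF5A is the protein that carries the modified amino acid hypusine, and Eif5a2 is the paralogue with the narrower expression. Eif5a2 had 868 and 894 with 4-hydroxytamoxifen, against 2183 and 2174 with DMSO, a difference of -1.24 ± 0.06 or 2.36-fold lower (adjusted p = 0.000576). Eif5a had 10583 and 11409 with 4-hydroxytamoxifen, against 20341 and 19712 with DMSO, a difference of -0.80 ± 0.07 (adjusted p = 0.00152). The 2 probes of each gene were called lower, with -0.57 for the second probe of Eif5a2 and -0.89 for that of Eif5a. Eif6, which keeps the large ribosomal subunit apart from the small one, had 9228 and 10828 with 4-hydroxytamoxifen, against 12808 and 12432 with DMSO. The groups of Eif6 did not overlap, but its difference of -0.27 ± 0.10 was not called (adjusted p = 0.0778), while its other probes were called lower at -0.54 and -0.77.

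Among the elongation factors, the core enzymes were not called and a regulatory kinase had the largest difference. Of the 7 measured genes, 2 were called higher (28.6%, against 40.3% of all features) and 2 lower (28.6%, against 29.3%), with a median of -0.03. Eef2k, the kinase that phosphorylates and inhibits eEF2, had 401 and 461 with 4-hydroxytamoxifen, against 1425 and 1250 with DMSO. Its difference of -1.56 ± 0.12, or 2.96-fold lower, was the largest of the 57 members (adjusted p = 0.00102). A dimmer Eef2k probe, not well above background in the 4-hydroxytamoxifen group, was at least 1.55-fold lower (adjusted p = 0.00986), from 13.0 and 17.1 against 28.3 and 27.6 with DMSO. Another dim Eef2k probe was not called at 0.14. Eef2, the translocation factor, had 44774 and 53048 with 4-hydroxytamoxifen, against 55448 and 50213 with DMSO, and differed by -0.04 ± 0.12. Eef1a1, the main carrier of aminoacyl-tRNA, had 44933 and 48031 with 4-hydroxytamoxifen, against 50443 and 46514 with DMSO, and differed by 0.01 ± 0.08. In Eef2 and Eef1a1 the groups overlapped and no probe was called. Eef1a2, known as the form of muscle and neurons, was not well above background on any array, with 10.5 and 10.5 with 4-hydroxytamoxifen against 3.46 and 3.93 with DMSO.

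Of the eEF1B subunits, which exchange GDP for GTP on eEF1A, Eef1b2 had 89120 and 91233 with 4-hydroxytamoxifen, against 81075 and 81193 with DMSO, a difference of 0.22 ± 0.06 (adjusted p = 0.0313). Eef1d had 69050 and 66575 with 4-hydroxytamoxifen, against 55587 and 61665 with DMSO, a difference of 0.28 ± 0.08 (adjusted p = 0.0335). Eef1g had 96728 and 101980 with 4-hydroxytamoxifen, against 108290 and 104270 with DMSO, and was not called at -0.03 ± 0.07. A dimmer Eef1g probe, at chr19:9052873-9052932, had 1190 and 1148 with 4-hydroxytamoxifen, against 3116 and 3143 with DMSO, and was called lower at -1.35 ± 0.07 (adjusted p = 0.000674). The Eef1b2 and Eef1d calls were kept under 3 and 5 of the 13 alternatives, and both were lost with median scaling. Eef1e1, which encodes a small protein of the multi-synthetase complex, had 8915 and 9589 with 4-hydroxytamoxifen, against 12775 and 11566 with DMSO, a difference of -0.32 ± 0.09 (adjusted p = 0.0317). The Eef1e1 call was kept under 7 of the 13 alternatives. Those that lost it included the omission of either 4-hydroxytamoxifen array or of DMSO replicate 1.

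The 4 kinases of eIF2 fell into both directions. Eif2ak4, which encodes GCN2, the sensor of uncharged tRNA, had 397 and 356 with 4-hydroxytamoxifen, against 763 and 743 with DMSO, a difference of -0.93 ± 0.08 (adjusted p = 0.00144). Eif2ak1, which encodes the haem-regulated kinase HRI, had 509 and 612 with 4-hydroxytamoxifen, against 913 and 905 with DMSO, a difference of -0.63 ± 0.11 (adjusted p = 0.00834). All 3 measured probes of Eif2ak1 and both of Eif2ak4 were called lower. Eif2ak2, which encodes PKR, the sensor of double-stranded RNA, had 540 and 464 with 4-hydroxytamoxifen, against 304 and 269 with DMSO, a difference of 0.88 ± 0.12 (adjusted p = 0.00403). Eif2ak3, which encodes PERK, the sensor of unfolded protein in the endoplasmic reticulum, had 864 and 830 with 4-hydroxytamoxifen, against 689 and 724 with DMSO, a difference of 0.33 ± 0.07 (adjusted p = 0.0126). In each of the 4 kinases the groups did not overlap, as in 86.5% of all features. The Eif2ak3 call was kept under 8 of the 13 alternatives. Those that lost it included the omission of 4-hydroxytamoxifen replicate 1 or DMSO replicate 1, and median scaling, under which its difference was 0.15.

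Of 6 genes for eIF2 itself and related factors, 1 was called higher (16.7%, against 40.3% of all features). Called lower were 3 (50%, against 29.3%), and the median was -0.21. Eif2s1, the subunit that the kinases phosphorylate, had 3369 and 3304 with 4-hydroxytamoxifen, against 4984 and 4769 with DMSO, a difference of -0.48 ± 0.07 (adjusted p = 0.00429). Eif2s2 had 19002 and 19069 with 4-hydroxytamoxifen, against 23439 and 22788 with DMSO, a difference of -0.21 ± 0.06 (adjusted p = 0.0398). This call was kept under 4 of the 13 alternatives and was lost when any 1 array was left out. A dimmer Eif2s2 probe went the other way, with 1452 and 1326 with 4-hydroxytamoxifen against 1136 and 1218 with DMSO, and was called higher at 0.31 (adjusted p = 0.0328). The third subunit, which binds GTP, has a copy on each sex chromosome, and the Y copy is known to be needed for spermatogonial proliferation in mice. Eif2s3y had 1450 and 1511 with 4-hydroxytamoxifen, against 3333 and 3091 with DMSO, a difference of -1.05 ± 0.08 (adjusted p = 0.000994). For Eif2s3x the brightest probe, at chrX:91434345-91434404, had 3790 and 3520 with 4-hydroxytamoxifen, against 2188 and 2387 with DMSO, a difference of 0.75 ± 0.08 (adjusted p = 0.00221). The probe upstream of it, printed above, had 1661 and 1467 with 4-hydroxytamoxifen, against 3353 and 3340 with DMSO, and was called lower at -1.03 ± 0.09 (adjusted p = 0.00152). A further Eif2s3x probe was called lower at -0.26. Eif2s3x thus had no single direction on this array. The X and Y copies are paralogues, so their values are given as uncertain: whether a probe of 1 copy also reads the other was not tested.

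Of 5 measured eIF2B subunits, 3 were called lower (60%, against 29.3% of all features) and 0 higher (against 40.3%). The lower count includes Eif2b3, which passed the filter on dim probes only through the DMSO arrays, so the share leans on that filter. Eif2b1, the alpha subunit, had 3762 and 3829 with 4-hydroxytamoxifen, against 5339 and 5302 with DMSO, a difference of -0.42 ± 0.06 (adjusted p = 0.00488). Eif2b4, the delta subunit, had 8203 and 8967 with 4-hydroxytamoxifen, against 11245 and 11682 with DMSO, a difference of -0.35 ± 0.08 (adjusted p = 0.0161). The Eif2b4 call was kept under 10 of the 13 alternatives. Those that lost it included the omission of 4-hydroxytamoxifen replicate 1 or of DMSO replicate 2. Eif2b3, the gamma subunit, was not well above background on either treated array, with 13.0 and 10.0 against 24.4 and 25.2 with DMSO, and was at least 1.38-fold lower (adjusted p = 0.00426). This fold is a bound: the brighter group's mean was set against the higher of the dim probe's own signal and each array's lowest signal well above background. Eif2b5 and Eif2b2 were not called, at 0.10 ± 0.07 and 0.19 ± 0.06.

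The 13 measured subunits of eIF3, the complex that bridges the small subunit and eIF4G, were called higher in 4 cases and lower in 4. Each share was 30.8%, against 40.3% higher and 29.3% lower over all features, and the median was 0.10. Eif3d, the subunit that can bind the cap of some mRNAs in human cells, had 17253 and 17011 with 4-hydroxytamoxifen, against 36928 and 35304 with DMSO, a difference of -1.01 ± 0.07 (adjusted p = 0.000836). Eif3m had 9582 and 9369 with 4-hydroxytamoxifen, against 17062 and 15881 with DMSO, a difference of -0.73 ± 0.07 (adjusted p = 0.00186). Eif3i had 4612 and 4990 with 4-hydroxytamoxifen, against 7421 and 7022 with DMSO, a difference of -0.52 ± 0.08 (adjusted p = 0.00549). These 3 lay among the subunits called lower, and the next 3 were called higher. Eif3h had 81409 and 83661 with 4-hydroxytamoxifen, against 66316 and 63673 with DMSO, a difference of 0.41 ± 0.07 (adjusted p = 0.00637). Eif3b, a scaffold subunit, had 42267 and 42824 with 4-hydroxytamoxifen, against 36289 and 35954 with DMSO, a difference of 0.31 ± 0.06 (adjusted p = 0.0122). Eif3c, part of the core, had 78715 and 78520 with 4-hydroxytamoxifen, against 68603 and 65323 with DMSO, a difference of 0.30 ± 0.07 (adjusted p = 0.0168). The calls of Eif3b, Eif3c and Eif3e were kept under 6, 5 and 4 of the 13 alternatives. Those that lost them included median scaling, spike-in scaling and the omission of either 4-hydroxytamoxifen array or of DMSO replicate 2. The call of Eif3h was lost with spike-in scaling alone. Eif3g was called lower at -0.28 and kept its call under 6 of the 13 alternatives. It lost the call when any 1 array was left out.

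Of 7 genes of the eIF1 family with Eif5 and Eif5b, 0 were called higher, against 40.3% of all features. Called lower were 2 (28.6%, against 29.3%), and 5 were not called. Eif1ad, which encodes a protein with an eIF1A-like domain, had 920 and 1069 with 4-hydroxytamoxifen, against 1569 and 1640 with DMSO, a difference of -0.62 ± 0.10 (adjusted p = 0.00602). Eif1ax, the X-linked eIF1A, had 16492 and 15723 with 4-hydroxytamoxifen, against 22865 and 22928 with DMSO, a difference of -0.44 ± 0.06 (adjusted p = 0.00511). The second Eif1ax probe was not called at 0.18, and the call was lost at -0.13 with probes averaged. Eif1, which guards the choice of start codon, had 29603 and 28770 with 4-hydroxytamoxifen, against 30433 and 31078 with DMSO, and differed by -0.01 ± 0.06. Its paralogue Eif1b had 17070 and 18650 with 4-hydroxytamoxifen, against 18413 and 18956 with DMSO, and differed by 0.00 ± 0.07. After scaling the groups overlapped in Eif1 and Eif1b. The brightest probe of Eif5b, which joins the ribosomal subunits, was not called at 0.03 ± 0.07, but 2 of its 5 kept probes were called lower at -0.77 and -0.49, and with probes averaged the gene was called lower at -0.22.

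Probes of the same gene often differed. Of the 22 members not called, 10 had at least 1 called probe, only lower in 7, only higher in 2 (Eif1a and Eif4e3) and both in 1 (Eif4g2). The matching share over all genes not called was not counted, so this is not read as a trait of the members. Of 121 kept member probes, 21 were called higher, 51 lower and 49 not called; among all 26392 probes 67.3% were called, 36.2% higher and 31.1% lower. In 5 of the 23 member genes with at least 2 called probes the calls were opposite (21.7%), against 529 of 3775 among all genes (14.0%). Besides Eif2s3x, described above, these were Eef1d, Eef1b2, Eif3c and Eif4g2. In Eef1d, a dim probe at chr15:75733697-75733756 had 57.9 and 65.2 with 4-hydroxytamoxifen, against 8.51 and 12.8 with DMSO, where it was not well above background, and was at least 3.75-fold higher (adjusted p = 0.00137). A second Eef1d probe, at chr15:75725580-75725639, had 157 and 161 with 4-hydroxytamoxifen, against 353 and 376 with DMSO, and was called lower at -1.13. Both were far dimmer than the probe that stands for the gene. In Eef1b2, a dim probe had 47.4 and 55.9 with 4-hydroxytamoxifen, against 87.5 and 98.5 with DMSO, and was called lower at -0.78. In Eif3c, a probe with 4262 and 4049 with 4-hydroxytamoxifen, against 5507 and 5153 with DMSO, was called lower at -0.29.

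Eif4g2, the scaffold that lacks the eIF4E-binding part and serves cap-independent initiation, was not called by its brightest probe, with 6225 and 5709 with 4-hydroxytamoxifen against 6782 and 7188 with DMSO. A downstream Eif4g2 probe, at chr7:118214606-118214665, had 2366 and 2202 with 4-hydroxytamoxifen, against 1453 and 1663 with DMSO, and was called higher at 0.62. An upstream one had 87.0 and 94.5 with 4-hydroxytamoxifen, against 140 and 135 with DMSO, and was called lower at -0.53. Eif3a had no opposite calls and is a case chosen after its values were seen: its brightest probe was not called at 0.05, and the exon-boundary probe at chr19:60845888-60846942 had 4655 and 4363 with 4-hydroxytamoxifen, against 7602 and 7248 with DMSO, and was called lower at -0.65. A dim Eif3a probe, not well above background with 4-hydroxytamoxifen, was at least 1.52-fold lower (adjusted p = 0.000823). The second Eif1 probe mapped to chromosome 1 in the files although RefSeq places the gene on chromosome 11, and 1 Eif4enif1 probe mapped to the strand opposite to the others; neither was called. The median range over probes of a gene, for the 40 members with over 1 kept probe, was 0.41 on the log2 scale, with fitted values for dim probes.

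**Figure D3:**
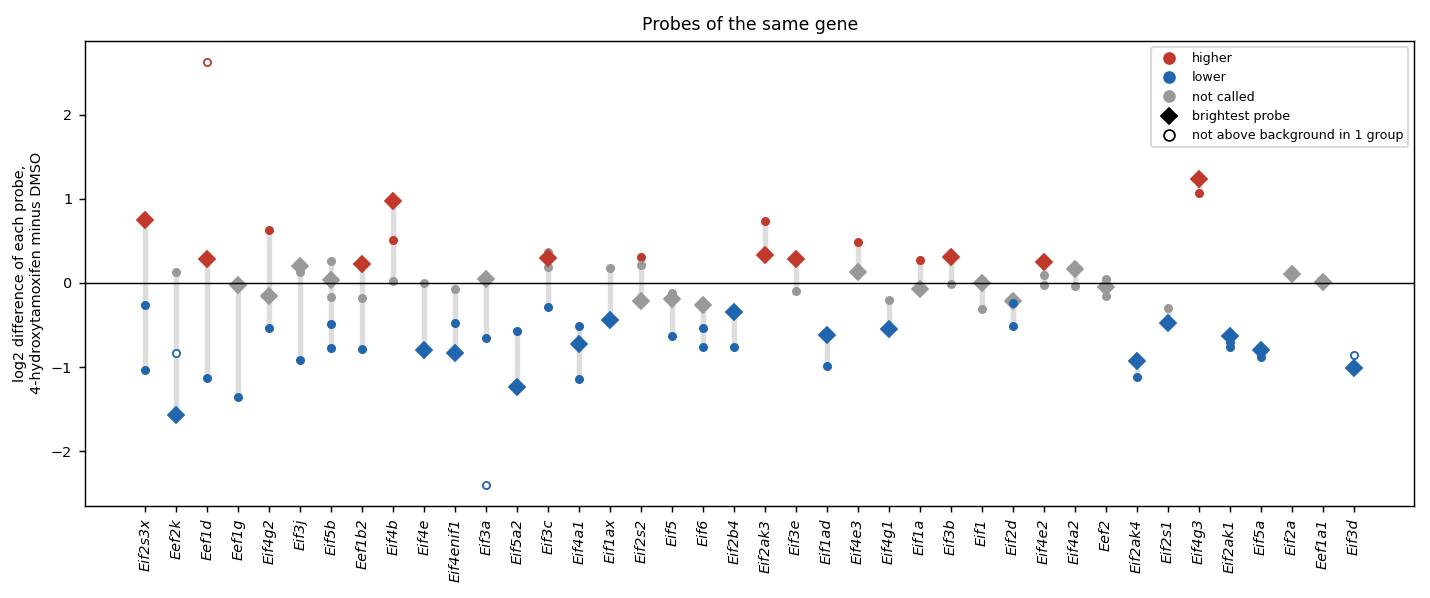
Log2 difference (4-hydroxytamoxifen minus DMSO) of every kept probe for the 40 members with over 1 kept probe, ordered by the range over probes above background in both groups (grey bars); diamonds mark the brightest probe, which stands for the gene. Eif2s3x has probes at 0.75 and -1.03, while the probes of Eif4g3, Eif5a, Eif2ak1 and Eif2ak4 lie on one side of 0. Open points, in Eef1d, Eef2k, Eif3a and Eif3d, are probes not well above background in 1 group, drawn at fitted values and not at bounds.

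Other genes of translation gave the setting, each list read against 40.3% higher and 29.3% lower over all features. Of 9 regulators of initiation, 5 were called higher and 1 lower. Mknk1, a kinase of eIF4E, was called higher at 1.04. Eif4ebp3 and Eif4ebp2, both of the family of eIF4E inhibitors, were called higher at 0.56 and lower at -0.78. Of 11 targets of the integrated stress response, which follows phosphorylation of eIF2, 7 were called higher and 2 lower, with a median of 0.81. Nupr1 and Ddit3 were called higher at 1.52 each, and Trib3 and Ppp1r15b were called lower at -1.18 and -0.40. Atf4, the factor that drives many of them and named here after its value was seen, was not called at -0.19 ± 0.14, with 843 and 1082 with 4-hydroxytamoxifen against 1171 and 1111 with DMSO. The array does not measure translation of Atf4 mRNA.

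Of 9 hypusine and diphthamide enzymes, which modify eIF5A and eEF2, 3 were called higher and 4 lower. Dph6 and Dph1 were called lower at -1.09 and -0.61, and Dph7 and Dph2 higher at 0.48 and 0.28. The hypusine enzymes themselves, named after their values were seen, were Dohh, called lower at -0.53 ± 0.07, and Dhps, not called at 0.01 ± 0.06. Of 22 genes for cytosolic aminoacyl-tRNA synthetases and their partners, 7 were called higher, led by Nars at 0.63 and Aars at 0.61, and 10 lower, led by Vars at -1.06 and Farsb at -0.76. Of 10 genes of termination, recycling and reinitiation, 3 were called higher, led by Ltn1 at 0.67 and Hbs1l at 0.64, and 5 lower, led by the release factor genes Gspt2 at -0.61 and Etf1 at -0.49. Of 6 poly(A)-binding proteins and partners, Pabpc4 was called higher at 0.50 and 3 were called lower, among them Paip2b at -0.60; Pabpc6, also lower, was not well above background with 4-hydroxytamoxifen. Of 10 mitochondrial translation factors, 2 were called higher, Mtrf1 at 0.75 and Mtif3 at 0.28, and 4 lower, led by Guf1 at -1.08 and Gfm2 at -0.96. Of 80 cytosolic ribosomal protein genes, 25 were called higher and 9 lower with a median of 0.13, led by Rps4x at 0.79, Rpl27a at 0.75, Rpl7l1 at -0.61 and Rps4l at -0.55. Of 12 housekeeping genes, 3 were called higher, led by Gusb at 1.33 and B2m at 0.96, and 6 lower, among them Actb at -0.69.

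**Figure D4:**
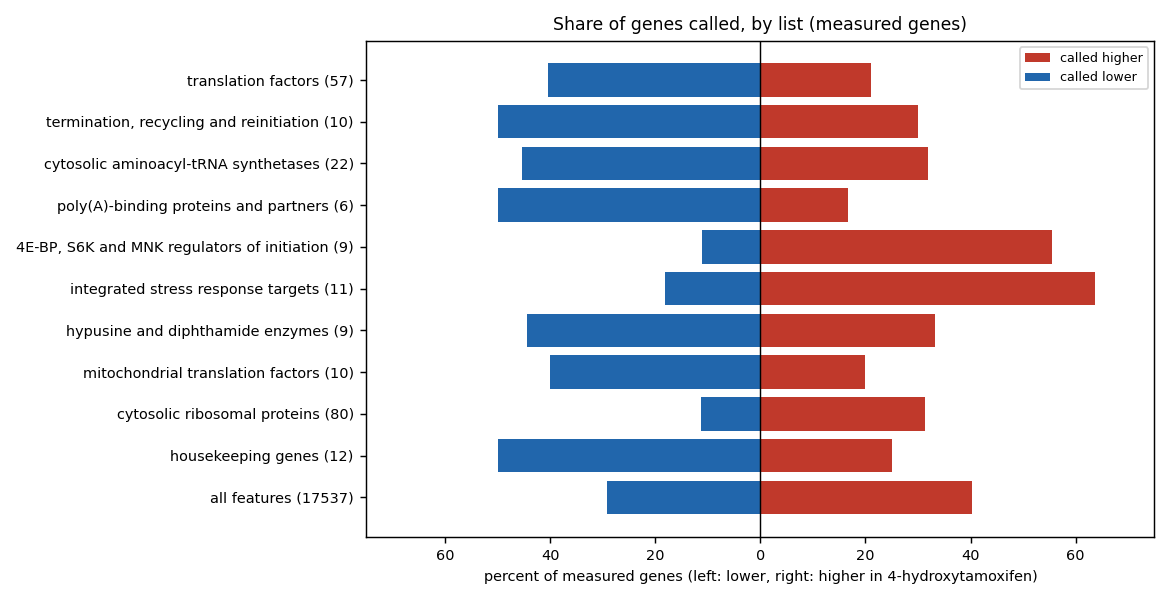
Percent of measured genes called higher (right) and lower (left) with 4-hydroxytamoxifen, for the translation factors, the other lists of translation genes, housekeeping genes and all features; the number of measured genes stands beside each name. The translation factors have 21.1% higher and 40.4% lower, against 40.3% and 29.3% over all features, and the ribosomal proteins have 31.3% higher and 11.3% lower.

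Markers of cell types differed between the groups, each list read against 40.3% higher and 29.3% lower over all features. Of 16 fibroblast markers, a list that covers the feeder cells, 15 were called higher and 0 lower, with summed signals of 390565 and 371441 with 4-hydroxytamoxifen, against 200857 and 235755 with DMSO. Of 11 macrophage and blood markers, 7 were called higher and 0 lower, with sums of 25210 and 25902 with 4-hydroxytamoxifen, against 12093 and 13572 with DMSO. Most of these sums came from 1 gene, Lyz2, at 23096 and 23791 with 4-hydroxytamoxifen, against 10921 and 12517 with DMSO. Ptprc, a defining marker of blood cells, was close to background at 21.4 and 20.1 with 4-hydroxytamoxifen, against 21.7 and 21.5 with DMSO, and was not called. Of 10 listed Sertoli and Leydig markers 7 were measured, with sums of 3286 and 3304 with 4-hydroxytamoxifen, against 1568 and 1658 with DMSO. The largest part of these sums was Clu, at 1860 and 1878 with 4-hydroxytamoxifen, against 831 and 858 with DMSO. Called higher were 4, namely Cldn11, Dhh, Clu and Sox9. Called lower were 2, Wt1 at -0.88 and Cyp17a1 at -0.43, and Star was not called. Of 11 germ cell markers, 0 were called higher and 9 lower, with sums of 67574 and 68431 with 4-hydroxytamoxifen, against 99141 and 99655 with DMSO. Dazl was called lower, at 7776 and 8075 with 4-hydroxytamoxifen against 21753 and 22426 with DMSO. Ddx4, at 18716 and 20047 with 4-hydroxytamoxifen against 23793 and 22119 with DMSO, and Sall4 were not called, at -0.17 and -0.16. Dazl, Ddx4 and Sall4 were present in both groups, and Ret was not well above background with 4-hydroxytamoxifen. No fibroblast marker was at background in either group. The part of these shifts in the differences of the translation factors was not tested.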

How the data were processed

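Total RNA of 4 samples, 2 per group, was read on 1-colour arrays after Cy3 labelling of 0.20 µg, as the labels state. Linear intensity values stand in the deposited scanner output. Its processed signals, with background subtracted, came from Feature Extraction 10.7.3.1 per the file headers, whereas the submitters' processing notes name version 9.5. A value table deposited by the authors is on a log2 scale and differed from the log2 of the processed signal only by a constant for each array (within 0.01 for 99.7% of probes on each array), 0.362 and 0.356 with 4-hydroxytamoxifen and 0.290 and 0.275 with DMSO, with column medians of 6.35, 6.35, 6.16 and 6.18.

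Outlier spots (60 to 71 per array) were left out, spots of a probe were averaged, and log2 processed signals were scaled to each array's 75th percentile. Probes well above background on at least 2 arrays were kept, and the brightest stood for its gene. Names were updated through RefSeq tables of GRCm38.p6: 27479 probes matched by accession, 5478 by symbol and 679 by synonym, and 7538 kept the name in the file. limma 3.58.1 in R 4.3.3 compared the groups over all features (lmFit, eBayes, Benjamini-Hochberg, threshold 0.05), and was tested on simulated data. The smallest two-sided p of an exact permutation test in this design is 0.333, and the number of arrays limits the precision. The members and all lists were chosen with earlier results of these data known, so counts are read only beside those of all features. Every member could be named. Values on each array are given for up to 3 called members per role and direction, for paralogue sets and for members with opposite calls among their probes, and differences for up to 2 called genes per direction in the other lists. A gene that this rule names is not reported here. Alternatives covered scaling (quantile, median, spike-in on 320 control spots), normexp background with offset 50, the deposited value table, the filter on dim probes, the choice of probe, the replicate number as a block and each array left out.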

Additional observations from a re-analysis of the deposited data

How the results depend on the processing

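The count of members called higher was 12 in the main setting (21.1%, against 40.3% of all features). It was 5 with median scaling (8.8%, against 32.6%) and 4 with spike-in scaling (7.0%, against 27.05%). With no filter on dim probes it was 6 (10.3%, against 23.1%), and with the probes of a gene averaged 7 (12.3%, against 38.1%). With every probe its own feature it was 21 of 121 (17.4%, against 36.2%). The count of lower members was 51 with every probe its own feature (42.15%), where 8208 of all features were lower (31.1%). For the fits with 1 array left out, where a group holds a single array, medians are given in place of counts. The median member was at -0.23 with median scaling, -0.20 with spike-in scaling, -0.20 with the mean of probes and -0.16 with every probe, and at -0.102 to -0.0182 with 1 array left out. Its distance to the median of all features was -0.0938 with quantile scaling, -0.12 with no filter, -0.12 with a filter on all 4 arrays, -0.28 with the mean of probes and -0.21 with every probe, and -0.22 to -0.12 with 1 array left out. With probes averaged the sign turned for Eif5b (-0.22), Eif2s2 (0.11), Eif2s3x (-0.18), Eif3a (-1) and Eef1b2 (-0.25), each called in at least 1 of the settings, and for the uncalled Eif1a (0.10) and Eif3j (-0.20), where averaging brings in dimmer probes. Deviations of same-numbered arrays correlated at -0.04, so no shared effect of the replicate number was visible. With 2 arrays per group, this value cannot show whether samples were paired by culture. With the replicate number as a block, 7 members were called higher (12.3%, against 37.0% of all features). Leaving out an array or adding the block reduces the degrees of freedom. Median and spike-in scaling subtract another constant from each array, so all differences shift alike. The distance of the median member to the median of all features stayed at -0.15 under both. For the other shifts the cause was not tested. Signal over background limited Eif2b3 and Eef1a2.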
